A study of Mus musculus with 10 samples.

Results

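Wnt proteins are secreted, lipid-modified ligands that act between neighbouring cells. They bind Frizzled (Fzd) receptors together with the co-receptors Lrp5 and Lrp6. In the canonical branch this protects β-catenin from a destruction complex that contains Axin and Apc, and β-catenin then works with transcription factors of the TCF/LEF family, of which Tcf7 and Lef1 are members. R-spondins (Rspo) bind Lgr4, Lgr5 or Lgr6 and remove the ligases Rnf43 and Znrf3, which otherwise clear Frizzled from the cell surface, while Dkk, Sfrp and Wif1 proteins are secreted modulators that mostly hold the pathway back. In the ovary Wnt4 and Rspo1 are known for their part in female gonad development, and Wnt signals are known in granulosa cells, the surface epithelium and the corpus luteum.

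The 52 members of this gene family were taken from the count table by symbol, as the Wnt, Fzd, Rspo and Dkk genes, Lgr4 to Lgr6, Lrp5, Lrp6, Sfrp1, Sfrp2, Sfrp5, Wif1, Axin1, Axin2, Lef1, Tcf7, Rnf43 and Znrf3, of 55487 genes in all. They are 19 Wnt ligands, 12 receptors, 9 R-spondins, Lgr receptors and ligases, 8 secreted inhibitors and 4 feedback and transcription genes. RNA was sequenced from whole ovaries of C57BL/6J mice, 4 from Control mice of 8 weeks, 3 from Aged mice of 11 months by the labels and 3 from Aged+CF mice of the same labelled age. The treatment of Aged+CF mice was CEFFE, a cell-free extract of fat tissue, given in volumes of 200 μL at 3 μg/μL into the tail vein, and by the study's methods Control and Aged mice received saline. All mice had been given 10 IU of PMSG, a gonadotropin that stimulates follicle growth, 48 h before the ovaries were taken. The age of the Aged mice is lower in the study's methods than in the labels. Animals were naturally aged, without an altered gene.

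Each library held 15761789 to 21318254 counts on genes. Values of a gene across ovaries are given as CPM, the count scaled to the library size by the TMM method, and levels of different genes are compared as FPKM, which also divides by gene length. Ovaries are named by group and by the number in the label. A gene was called at a fold change of at least 1.5 with p under 0.05 in edgeR's quasi-likelihood test, with the Benjamini-Hochberg adjustment over all 18956 genes tested ("adjusted p") or without it ("unadjusted p"). The 3 Aged ovaries enter both the comparison with Control and the comparison with Aged+CF, so a low or high Aged value moves both in opposite directions, and no overlap between them is given as a result. Each of the 19 oocyte and 12 granulosa markers listed had a count in at least 1 ovary. So had all 12 oviduct epithelium and all 8 lymphoid markers, so detection alone does not identify the tissue. The summed oocyte markers were 779 to 1002 CPM in Control, 106 to 276 CPM in Aged and 407 to 570 CPM in Aged+CF. In addition, markers of oviduct epithelium summed to 457 CPM in Control 33 and 354 CPM in Aged 34, against at most 46.0 CPM in the other ovaries, and lymphoid markers summed to 1102 CPM in Aged 34 and 164 CPM in Aged 31, against 39.0 CPM in Aged 33 and 20.9 to 55.1 CPM in Control and Aged+CF. The spread between ovaries, as edgeR's biological coefficient of variation within the group, was 0.378 in Aged, against 0.209 in Control and 0.193 in Aged+CF.

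As background to the target side of the pathway, the bases before the transcription start were read for the members listed in RefSeq (34 of 52, GRCm38.p6). The letters CTTTGAT and CTTTGAA, the core of the TCF/LEF motif, were searched on both strands in the 250 bases before each start. They occurred at 3 of the 34 member genes (8.82%), Dkk1, Wnt11 and Wnt5b, and at 8.63% of the 27025 genes with a listed start, so the share at members was near that of all genes. They were not found in these windows of Axin2, Tcf7, Lef1 or Rnf43. Wnt11 and Wnt5b are shown because their levels were lower in Aged ovaries and their windows hold the letters, and Axin2 because it is a widely used target gene of β-catenin. Each is written on the strand of the gene, 5′ to 3′, with the motif in capitals. The Wnt11 window is chr7:98834862-98835111 on the plus strand, the Wnt5b window is chr6:119449387-119449636 on the minus strand, and the Axin2 window is chr11:108920099-108920348 on the plus strand. Other listed starts of Wnt11 and Wnt5b have no such letters in their windows.
Wnt11: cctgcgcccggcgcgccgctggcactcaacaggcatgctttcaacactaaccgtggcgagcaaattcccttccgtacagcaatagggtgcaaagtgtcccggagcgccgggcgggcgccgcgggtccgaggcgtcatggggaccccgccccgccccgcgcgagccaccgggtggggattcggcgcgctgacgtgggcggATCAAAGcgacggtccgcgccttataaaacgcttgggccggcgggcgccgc
Wnt5b: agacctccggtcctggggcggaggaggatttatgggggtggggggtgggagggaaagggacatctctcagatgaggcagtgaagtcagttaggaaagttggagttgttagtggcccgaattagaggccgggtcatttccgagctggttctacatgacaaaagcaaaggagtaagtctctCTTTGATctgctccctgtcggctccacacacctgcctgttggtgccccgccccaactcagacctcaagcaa
Axin2: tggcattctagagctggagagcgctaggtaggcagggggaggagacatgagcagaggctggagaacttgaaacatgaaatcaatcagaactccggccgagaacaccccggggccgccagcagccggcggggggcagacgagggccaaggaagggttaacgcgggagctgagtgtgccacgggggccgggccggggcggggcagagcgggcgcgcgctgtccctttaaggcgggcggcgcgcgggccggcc

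Wnt4 was the most abundant ligand transcript in all 10 ovaries, and Fzd1 the most abundant Frizzled transcript in all but Aged 33, where Fzd4 was higher. Mean FPKM over the 10 ovaries was 57.0 for Wnt4, 19.0 for Wnt6 and 13.6 for Wnt10b, and 8 of the 19 ligands had a mean of at least 1 FPKM. Wnt4 made up 49.5% to 56.9% of the summed ligand FPKM in Control, 50.6% to 52.4% in Aged and 40.9% to 49.9% in Aged+CF. Among the receptors, mean FPKM was 29.1 for Fzd1, 14.7 for Fzd4 and 13.5 for Fzd7, and 10 of 12 had at least 1 FPKM. Lgr4 had the highest mean of its group with 20.9 FPKM, followed by Lgr6 with 6.83 and Rspo1 with 5.95. Of the secreted inhibitors, Dkk3 and Sfrp1 lay close together at 26.8 and 26.4 FPKM, above Sfrp2 at 6.25. Axin1 and Tcf7, at 17.3 and 16.3 FPKM, were above Axin2 at 6.10.

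**Figure D1:**
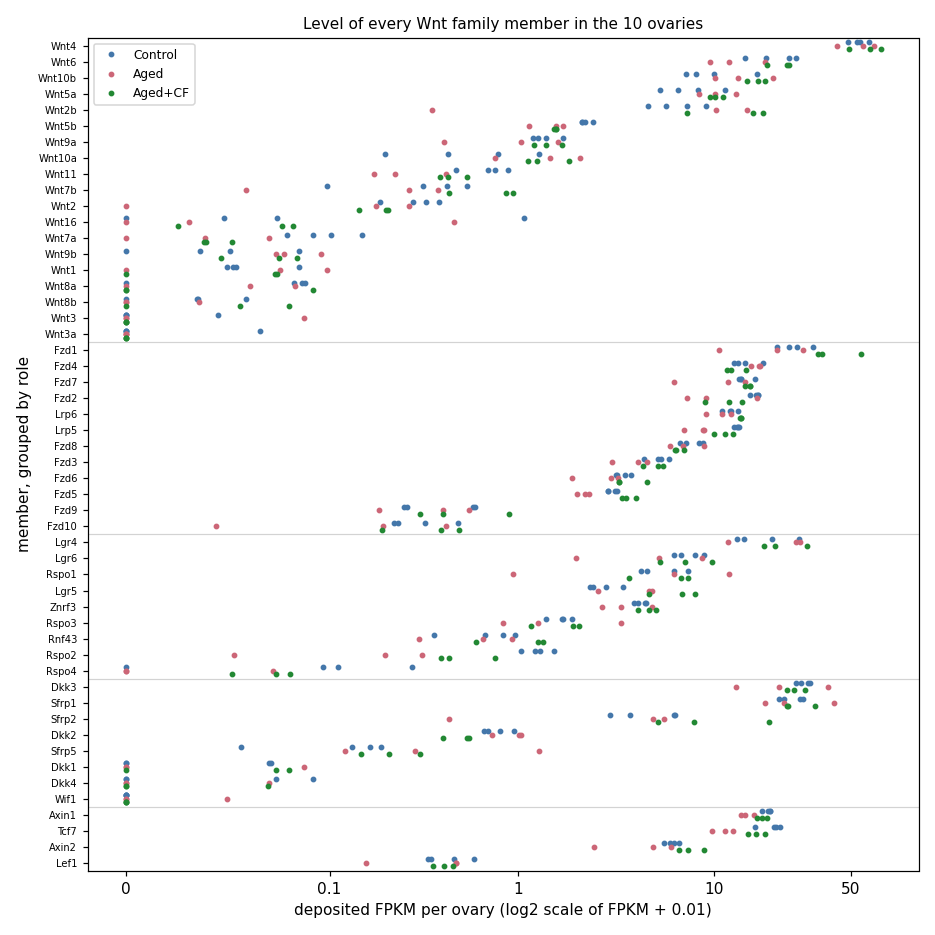
Deposited FPKM of all 52 members in each of the 10 ovaries, on a log2 axis after adding 0.01, with members ordered by mean level within each role (from top: ligands, receptors, R-spondins with Lgr receptors and ligases, secreted inhibitors, feedback and transcription genes). Wnt4 (mean 57.0 FPKM) stands above the other ligands in every ovary, and the genes at the foot of the ligand and inhibitor groups sit near 0.

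Of the 52 members, 39 passed the filter on low counts and were tested. The other 13 were Dkk1, Dkk4, Rspo4, Sfrp5, Wif1, Wnt1, Wnt16, Wnt3, Wnt3a, Wnt7a, Wnt8a, Wnt8b and Wnt9b, with 8 ligands and 4 secreted inhibitors among them. For 11 of these the highest count in any ovary was 11. Wnt16 and Sfrp5, chosen here after their values were seen, were the exceptions. Wnt16 had 112 counts in Control 33 and 47 in Aged 34, or 5.68 and 2.59 CPM, and 0 to 0.345 CPM in the other 8 ovaries. Those are the same 2 ovaries in which the oviduct markers were high, and the part of oviduct tissue in these values was not tested. Sfrp5 had 44 counts in Aged 34, or 2.43 CPM, against 0.0530 to 0.635 CPM elsewhere.

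**Figure D2:**
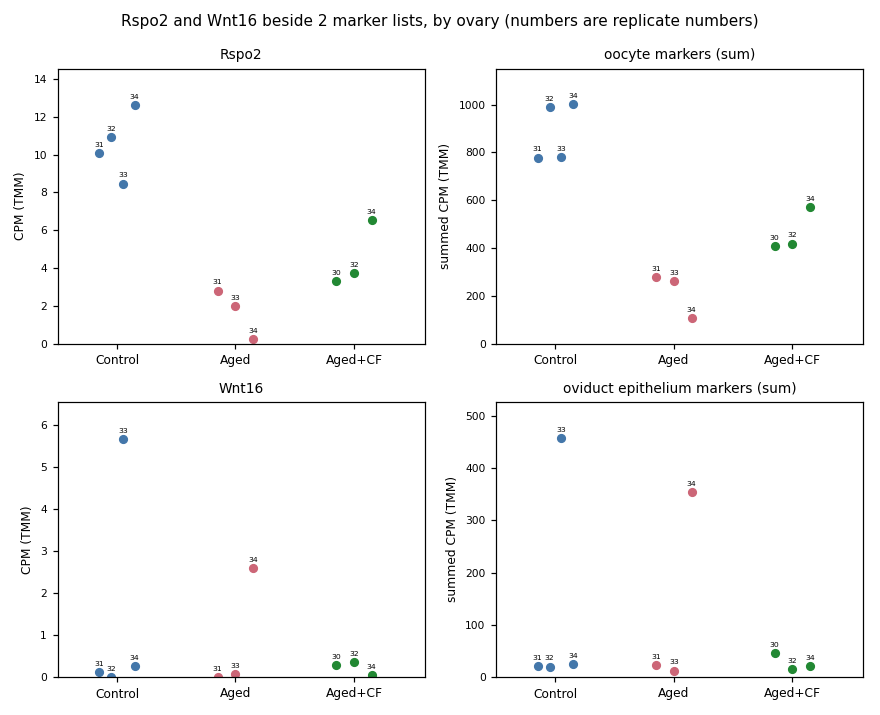
CPM by ovary (points, with replicate numbers) of Rspo2 and Wnt16 at left, and the summed CPM of the oocyte and oviduct epithelium marker lists at right, for Control, Aged and Aged+CF. Rspo2 and the oocyte markers are lowest in Aged 34, and Wnt16 and the oviduct markers are high in Control 33 and Aged 34.

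The comparison of Aged with Control asks which members differ with age. Rspo2, Tcf7 and Wnt11 fell at adjusted p in Aged ovaries and no member rose, so 3 of 39 tested members were called, or 7.69%. Among all genes tested 11.1% were called in this comparison, 6.06% as lower in Aged. At unadjusted p, Lgr5 and Wnt10a were also called, as higher (in 14 and 6 of 16 alternatives), which makes 12.8% of the members against 18.2% of all genes (8.79% higher and 9.44% lower). The log2 fold change was negative for 26 of the 39 members and positive for 13, with a median of -0.22 against -0.00 over all genes tested. This direction rested on Aged 33, as without it 16 of 41 tested members were negative and 25 positive, with a median of 0.05 against 0.04. Groups did not overlap for 7 members, all lower in Aged (17.9%, against 27.5% of all genes in either direction). With all 10 ovaries the share of members called was thus near or below that of all genes. Leaving out Aged 34 raised the calls to 5 at adjusted p (12.8%, against 16.1% of all genes in that fit) and to 12 at unadjusted p (30.8%, against 22.1%). Leaving out Aged 33 raised the latter to 8 (19.5%, against 17.2%).

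**Figure D3:**
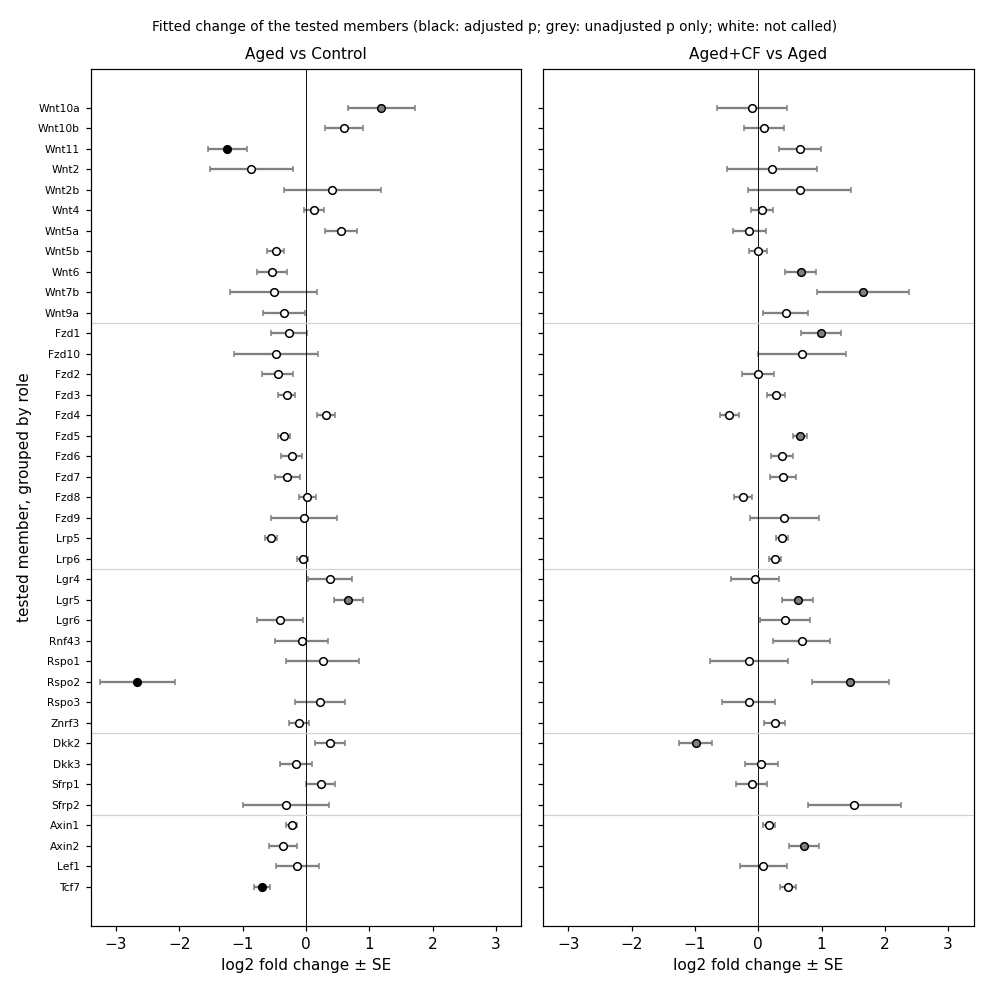
Fitted log2 fold change ± SE of the 39 tested members, grouped by role, for Aged vs Control (left) and Aged+CF vs Aged (right). Black points were called at adjusted p, grey points at unadjusted p alone and white points were not called; Rspo2 lies farthest to the left at -2.67, and 9 of the 12 receptors lie right of 0 in Aged+CF vs Aged.

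Rspo2 encodes an R-spondin that in the mouse ovary is known from oocytes. Its CPM in Control was 10.1, 10.9, 8.47 and 12.6 in ovaries 31, 32, 33 and 34. In Aged ovaries 31, 33 and 34 it was 2.8, 1.98 and 0.221, and in Aged+CF ovaries 30, 32 and 34 it was 3.33, 3.73 and 6.52. All Aged values thus lay below all Aged+CF values, which lay below all Control values. Aged was 6.34-fold lower than Control (log2 fold change -2.67, SE 0.59, adjusted p = 0.018). Aged+CF was 2.74-fold higher than Aged at unadjusted p (log2 fold change 1.45, SE 0.60, adjusted p = 0.278). Aged+CF was 2.32-fold lower than Control at unadjusted p (adjusted p = 0.346). Without Aged 34, which had 4 counts of the gene, the log2 fold changes were -2.09 (adjusted p = 0.00377) for Aged vs Control and 0.90 (adjusted p = 0.14) for Aged+CF vs Aged. Oocyte markers moved with Rspo2 between the groups. At adjusted p, 15 of 19 fell in Aged vs Control (78.9%, against 6.06% of all genes called as lower). At unadjusted p, 7 of 19 were higher in Aged+CF vs Aged (36.8%, against 3.91% of all genes called as higher). In whole ovaries, fewer cells of a type and less RNA per cell cannot be told apart. The gene lies at chr15:43020794-43170826 on the minus strand (GRCm38) and overlaps no other annotated gene.

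Tcf7 encodes TCF1, a transcription factor that works with β-catenin and is also known from T cells. Control ovaries 31 to 34 had 78.8, 74.7, 58.3 and 75.9 CPM. Aged ovaries had 44.2, 42.3 and 46.9 CPM, and Aged+CF ovaries 60.3, 56.1 and 68.4 CPM. The Aged ovaries lay close together and below every other ovary, while the Control and Aged+CF ranges overlapped. Aged was 1.62-fold lower than Control (log2 fold change -0.69, SE 0.12, adjusted p = 0.00855). For Aged+CF vs Aged the log2 fold change was 0.47 (SE 0.13, adjusted p = 0.171), below the fold minimum. All 8 lymphoid markers, a list not limited to T cells, rose in Aged vs Control at adjusted p, as did 5% of all genes. Their sum was 164, 39.0 and 1102 CPM in Aged ovaries 31, 33 and 34. The part of lymphoid cells in the Tcf7 values was not tested. Tcf7 lies at chr11:52252371-52283014 on the minus strand and shares part of its span with Gm26551 on the same strand and A630014C17Rik on the other. Reads of these genes may not be told apart, as no source used here states whether counting used strand.

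Wnt11, a ligand often linked to β-catenin-independent signalling, had 5.37, 3.43, 6.19 and 4.98 CPM in Control ovaries 31 to 34. It had 1.73, 1.48 and 3.09 CPM in Aged and 2.81, 4.02 and 3.19 CPM in Aged+CF. The highest Aged value, in ovary 34, was below the lowest Control value, and Aged+CF overlapped both groups. Aged was 2.36-fold lower than Control (log2 fold change -1.24, SE 0.31, adjusted p = 0.0274), but the call passed in 9 of 16 alternatives, with the exceptions mostly fits without a single ovary. The difference of Aged+CF from Aged did not pass (log2 fold change 0.66, adjusted p = 0.348). Wnt11 lies at chr7:98835112-98855195 on the plus strand, and Gm8398 overlaps it on the other strand.

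**Figure D4:**
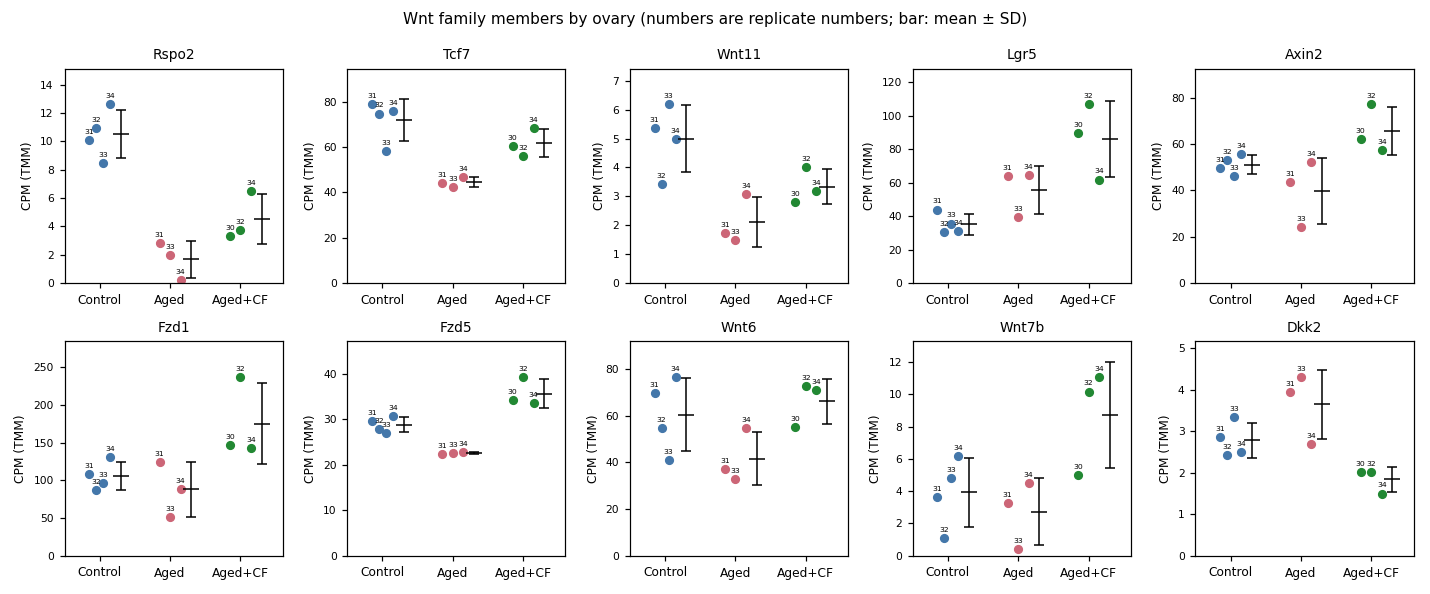
CPM by ovary (points, with replicate numbers) of 10 members called in Aged vs Control at adjusted p or in Aged+CF vs Aged at unadjusted p, with mean ± SD as the black bar (4 Control, 3 Aged and 3 Aged+CF ovaries). Rspo2, Tcf7 and Fzd5 are lowest in all 3 Aged ovaries, and Dkk2 is lowest in all 3 Aged+CF ovaries.

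A further 3 members had an adjusted p under 0.05 in Aged vs Control with a smaller fold. They are Lrp5, Fzd5 and Wnt5b, and Lrp5 and Wnt5b are named here after their values were seen. Lrp5, the Wnt co-receptor, was at 147 to 155 CPM in Control, 97.4 to 108 CPM in Aged and 120 to 151 CPM in Aged+CF, with Aged 1.46-fold lower than Control (adjusted p = 0.00764). Its partner Lrp6 was at 169 to 198 CPM in Control and at 163 to 192 CPM in Aged (adjusted p = 0.751). In Aged+CF, Lrp6 was at 210 to 216 CPM, above every Control and Aged value. Its log2 fold change against Aged was 0.26 (adjusted p = 0.232), below the fold minimum. Wnt5b, a ligand of the non-canonical kind, was at 11.4 to 13.1 CPM in Control and 7.34 to 9.59 CPM in Aged (log2 fold change -0.48, adjusted p = 0.0414). It was at 8.37 to 8.81 CPM in Aged+CF (log2 fold change against Aged -0.01).

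The comparison of Aged+CF with Aged asks what differs after CEFFE. No member was called at adjusted p, where edgeR called 0.00528% of all genes, and 8 of 39 members (20.5%) were called at unadjusted p, where 7.96% of all genes were. Of these 8, Axin2, Fzd1, Fzd5, Lgr5, Rspo2, Wnt6 and Wnt7b were higher in Aged+CF and Dkk2 was lower. Among all genes, 3.91% were called as higher and 4.05% as lower. The log2 fold change was positive for 28 members and negative for 11, with a median of 0.28 against -0.02 over all genes tested. The median was 0.12 without Aged 33 and 0.47 without Aged 34. Groups did not overlap for 13 members, 10 of them higher in Aged+CF (33.3%, against 18.6% of all genes). With DESeq2's Wald test 3 members passed at adjusted p, Dkk2, Fzd1 and Fzd5 (7.69%, against 2.33% of all genes by that test). The count at unadjusted p rested on the Aged ovaries, as it was 3 without Aged 33 (7.32%, against 7.89% of all genes in that fit) and 12 without Aged 34 (30.8%, against 12.2%). It was 5 (12.2%) without Aged+CF 32 or Aged+CF 34, against 7.63% and 5.95% of all genes. At adjusted p, Dkk2 and Fzd5 passed without Aged 34 (5.13%, against 2.87% of all genes). The named calls passed at unadjusted p in 16 of 16 alternatives for Fzd1 and Fzd5, 15 for Dkk2, 13 for Axin2, 12 for Wnt6, 11 for Lgr5, 10 for Rspo2 and 7 for Wnt7b.

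Of the 12 receptors, 9 had a positive log2 fold change in this comparison, with a median of 0.37 against -0.02 over all genes tested. Fzd1 and Fzd5 were called at unadjusted p (16.7%, against 7.96% of all genes). Fzd5, a Frizzled of canonical signalling, had 22.3, 22.6 and 22.7 CPM in Aged ovaries 31, 33 and 34 and 34.1, 39.2 and 33.5 CPM in Aged+CF ovaries 30, 32 and 34. Its Control values of 29.6, 27.9, 26.9 and 30.6 CPM lay between the other groups, with no overlap on either side. Aged+CF was 1.58-fold higher than Aged (log2 fold change 0.66, SE 0.10, adjusted p = 0.15). Without Aged 34 the adjusted p was 0.0299. Against Control, Aged was 1.28-fold lower (adjusted p = 0.0375). Fzd5 lies at chr1:64730558-64737751 on the minus strand, and Gm38058 overlaps it on the other strand.

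Fzd1, a Frizzled known to be induced in granulosa cells by the ovulatory signal in rodents, had 124, 51.3 and 88.7 CPM in Aged ovaries 31, 33 and 34. In Aged+CF ovaries 30, 32 and 34 it had 147, 237 and 142 CPM, and in Control 108, 87.3, 96.7 and 131 CPM. Every Aged+CF value was above every Control and Aged value, and ovary 32 of Aged+CF was well above the rest. Aged+CF was 1.99-fold higher than Aged (log2 fold change 0.99, SE 0.31, adjusted p = 0.199). Fzd1 was 18.9% to 33.9% of the summed Frizzled FPKM in Aged and 35.9% to 50.7% in Aged+CF. Fzd1 lies at chr5:4753839-4758035 on the minus strand and overlaps no other annotated gene.

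Fzd4, known for its role in luteal function, had 95.2 ± 16.2 CPM in Control (SD, n = 4), 118 ± 13.5 CPM in Aged (SD, n = 3) and 86.0 ± 8.83 CPM in Aged+CF (SD, n = 3). Individual values were 86.1, 119, 92.8 and 83.2 CPM in Control, 120, 131 and 104 CPM in Aged, and 95.9, 82.9 and 79.1 CPM in Aged+CF. Aged and Aged+CF did not overlap, but the log2 fold change of -0.46 (SE 0.15, adjusted p = 0.205) was below the fold minimum. Summed luteal markers were 9362, 13287 and 3390 CPM in Aged ovaries 31, 33 and 34, and 2387 to 6133 CPM in Aged+CF. Summed markers of endothelium, a tissue in which Fzd4 is also known, were 765, 894 and 675 CPM in the same Aged ovaries. They were 588, 569 and 647 CPM in Aged+CF ovaries 30, 32 and 34, without overlap with Aged. Both sums had the order of Fzd4 across the Aged ovaries, and neither had it across those of Control or Aged+CF. The part of either in this difference was not tested. Fzd7 had 60.3, 60.2, 59.9 and 71.7 CPM in Control, 55.7, 32.6 and 65.6 CPM in Aged and 68.1, 65.5 and 69.1 CPM in Aged+CF, with Aged 33 low (adjusted p = 0.368 for Aged+CF vs Aged).

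Among the R-spondins and their receptors, Lgr5 had the smallest adjusted p of all members between Aged+CF and Control. It encodes an R-spondin receptor known as a marker of stem and progenitor cells, in the ovary in the surface epithelium. It had 43.9, 30.3, 35.5 and 30.9 CPM in Control, 63.8, 39.2 and 64.3 CPM in Aged, and 89.8, 107 and 61.8 CPM in Aged+CF. Aged+CF lay above all Control values, and Aged overlapped both other groups. Aged+CF was 2.45-fold higher than Control (log2 fold change 1.29, SE 0.23, adjusted p = 0.07), 1.54-fold higher than Aged (adjusted p = 0.258), and Aged was 1.59-fold higher than Control (adjusted p = 0.0744). DESeq2's Wald test passed the difference from Control (adjusted p = 5.9e-05). Surface epithelium markers summed to 169 to 334 CPM in Control, 90.9 to 463 CPM in Aged and 255 to 448 CPM in Aged+CF, none of the 10 at 0 throughout, and their part was not tested. Lgr5 lies at chr10:115450311-115587780 on the minus strand, with A930009A15Rik overlapping on the other.

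Lgr4, the most abundant Lgr receptor, had 159, 85.2, 116 and 78.0 CPM in Control, 165, 193 and 72.3 CPM in Aged and 122, 183 and 110 CPM in Aged+CF, with wide overlap (adjusted p = 0.489 for Aged vs Control). Lgr6 had 74.6, 58.5, 67.1 and 52.7 CPM in Control, 47.1, 19.9 and 75.8 CPM in Aged and 83.2, 46.7 and 62.3 CPM in Aged+CF. Rspo1, the R-spondin of female gonad development, had 9.40, 10.2, 16.1 and 13.8 CPM in Control, 14.7, 2.47 and 27.2 CPM in Aged and 16.5, 15.5 and 8.44 CPM in Aged+CF. The Aged ovaries thus held both the lowest and the highest Rspo1 value. The ligand Wnt2b, named after its values were seen, had the same order in Aged with 48.9, 1.90 and 68.5 CPM, and so had the surface epithelium markers, lowest in Aged 33 at 90.9 CPM. The part of surface epithelium in these values was not tested.

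Of the ligands, Wnt6 and Wnt7b were called at unadjusted p in Aged+CF vs Aged. Wnt6 had 37.2, 32.9 and 54.6 CPM in Aged and 54.9, 72.7 and 70.7 CPM in Aged+CF, a gap of less than the spread within either group, and 69.6, 54.6, 41.1 and 76.4 CPM in Control. Aged+CF was 1.59-fold higher than Aged (log2 fold change 0.67, SE 0.25, adjusted p = 0.245). Wnt7b had 3.28, 0.423 and 4.52 CPM in Aged, 4.99, 10.2 and 11.1 CPM in Aged+CF and 3.62, 1.12, 4.82 and 6.15 CPM in Control (Aged+CF vs Aged log2 fold change 1.66, SE 0.73, adjusted p = 0.301). Wnt6 lies at chr1:74771892-74785322 on the plus strand and Wnt7b at chr15:85535437-85582473 on the minus strand, and each overlaps a gene on the other strand (Gm29539 and AU022754). Wnt4, the leading ligand, lies at chr4:137277489-137299726 on the plus strand. It had 251, 231, 194 and 219 CPM in Control, 251, 206 and 277 CPM in Aged and 200, 300 and 264 CPM in Aged+CF. Its log2 fold changes were 0.13 (SE 0.16) for Aged vs Control and 0.06 (SE 0.17) for Aged+CF vs Aged, with overlap of all groups. Wnt10b had 161, 79.8, 95.4 and 69.4 CPM in Control, 207, 153 and 102 CPM in Aged and 178, 168 and 147 CPM in Aged+CF (Aged+CF vs Control log2 fold change 0.70, adjusted p = 0.327).

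Dkk2, a secreted protein that binds Lrp5 and Lrp6, was the member lower in Aged+CF at unadjusted p. It had 3.94, 4.30 and 2.70 CPM in Aged and 2.01, 2.01 and 1.50 CPM in Aged+CF. Control ovaries had 2.86, 2.43, 3.35 and 2.49 CPM, above every Aged+CF value and overlapping Aged. Aged+CF was 1.98-fold lower than Aged (log2 fold change -0.99, SE 0.26, adjusted p = 0.169) and 1.52-fold lower than Control (adjusted p = 0.315). Dkk2 lies at chr3:132085292-132180304 on the plus strand. The abundant Dkk3 had 85.6, 92.5, 100 and 98.8 CPM in Control, 74.9, 50.4 and 128 CPM in Aged and 84.7, 79.7 and 98.2 CPM in Aged+CF. Sfrp1, a decoy that binds Wnt proteins, had 116, 93.2, 120 and 96.5 CPM in Control, 103, 91.9 and 180 CPM in Aged and 103, 104 and 144 CPM in Aged+CF. Groups overlapped for both, and no comparison of either passed. Sfrp2 had 17.0, 8.17, 10.0 and 17.4 CPM in Control, 16.3, 1.41 and 13.8 CPM in Aged and 21.8, 14.6 and 54.3 CPM in Aged+CF, so that Aged+CF 34 and Aged 33 set the log2 fold change of 1.52 (SE 0.73, adjusted p = 0.334).

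Axin2, a feedback inhibitor that is itself a β-catenin target, had 49.8, 53.0, 46.0 and 55.6 CPM in Control and 43.4, 24.2 and 52.1 CPM in Aged. It had 62.2, 77.1 and 57.5 CPM in Aged+CF, above every Control and Aged value. Aged+CF was 1.64-fold higher than Aged (log2 fold change 0.72, SE 0.24, adjusted p = 0.211), and Aged 33 was the lowest ovary. Axin2 lies at chr11:108920349-108950783 on the plus strand, and Gm11670 overlaps it on the other. Axin1, the scaffold of the destruction complex, had 93.8, 98.6, 87.2 and 96.6 CPM in Control, 72.9, 85.9 and 82.5 CPM in Aged and 88.9, 85.5 and 96.5 CPM in Aged+CF (Aged vs Control log2 fold change -0.23, adjusted p = 0.112).

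Aged+CF was also set against Control, with ovaries that the other comparisons use. No member was called at adjusted p, against 0.179% of all genes (0.0422% lower), and 5 (12.8%) were called at unadjusted p, against 7.69% of all genes (3.33% higher and 4.36% lower). Fzd1, Lgr5 and Wnt10b were higher in Aged+CF, and Dkk2 and Rspo2 were lower. The call passed in 16 of 16 alternatives for Lgr5, in 11 for Fzd1, 9 for Wnt10b, 7 for Rspo2 and 4 for Dkk2. Groups did not overlap for 9 members (23.1%, against 21.9% of all genes), and the median log2 fold change was 0.13 against -0.03. The median was 0.07 without Aged+CF 32, and with a replicate block it was -0.04 against -0.05. DESeq2's Wald test called 1 member at adjusted p, Lgr5 (2.56%, against 2.79% of all genes by that test). The count at unadjusted p was 1 without Control 33 (2.56%, against 7.19% of all genes in that fit) or Aged+CF 32 (2.44%, against 4.38%). It was 2 without Aged+CF 30 (5%, against 6.51%). Without Control 32, Control 34 or Aged+CF 34 it was 3, against 5.57%, 6.34% and 7.58% of all genes. An unadjusted p under 0.05 without regard to fold was found for 8 members (20.5%, against 14.3% of all genes). In the comparison of Aged with Control it was found for 12 (30.8%, against 31.6%), and in that of Aged+CF with Aged likewise for 12 (30.8%, against 16.3%).

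Other genes of the pathway were taken from a list of 70 genes outside the 52 members, of which 66 were tested. The list holds intracellular, secretory, receptor and planar polarity genes, and secreted modulators such as Sfrp4 that the choice of symbols left out. In Aged vs Control, 2 rose and 4 fell at adjusted p (9.09%, against 11.1% of all genes), and 53 of 66 log2 fold changes were negative, with a median of -0.21 (-0.08 without Aged 33). In Aged+CF vs Aged none was called at adjusted p, 14 had an unadjusted p under 0.05 at any fold (21.2%, against 16.3% of all genes) and 6 were called at unadjusted p (9.09%, against 7.96% of all genes), 5 as higher and 1 as lower. DESeq2's Wald test called 2 at adjusted p, Apc and Porcn (3.03%, against 2.33% of all genes by that test). Without Aged 34, 14 were called at adjusted p in Aged vs Control (21.2%, against 16.1% of all genes in that fit) and 12 at unadjusted p in Aged+CF vs Aged (18.2%, against 12.2%), where the count was 3 (4.55%) without Aged 33 or Aged+CF 34, against 7.89% and 5.95%. The median log2 fold change was 0.18 against -0.02 over all genes (0.05 without Aged 33).

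Sfrp4, a secreted Frizzled-related protein known from the corpus luteum, rose from 1088 ± 475 CPM in Control (SD, n = 4) to 4735 ± 2148 CPM in Aged (SD, n = 3). Its log2 fold change was 2.12 (SE 0.41, adjusted p = 0.0119), and Aged+CF had 2660 ± 639 CPM (SD, n = 3; log2 fold change against Aged -0.83, adjusted p = 0.373). Luteal markers were likewise higher in Aged, with 784 to 3310 CPM in Control and 3390 to 13287 CPM in Aged, and both were highest in Aged 33. Their part in the rise of Sfrp4 was not tested.

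Apc, a scaffold of the destruction complex, had 35.4, 23.2, 30.8 and 30.5 CPM in Control, 49.3, 99.6 and 106 CPM in Aged and 37.8, 40.4 and 34.7 CPM in Aged+CF. Aged stood above both other groups, 2.84-fold higher than Control (log2 fold change 1.50, SE 0.24, adjusted p = 0.00656), and Aged+CF was 2.26-fold lower than Aged at unadjusted p (log2 fold change -1.18, SE 0.26, adjusted p = 0.159). Gsk3b, the kinase that marks β-catenin for destruction, had 106, 80.3, 151 and 141 CPM in Control, 43.5, 48.7 and 50.7 CPM in Aged and 96.9, 121 and 54.2 CPM in Aged+CF. Aged lay below all other ovaries, 2.51-fold lower than Control (log2 fold change -1.33, SE 0.28, adjusted p = 0.0159), and Aged+CF was 1.91-fold higher than Aged at unadjusted p (adjusted p = 0.203). Apc and Gsk3b, which act in the same complex, thus differed from Control in opposite directions in Aged.

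The remaining falls in Aged at adjusted p were of Tcf7l2, Tle4 and Tnks. Tcf7l2, a TCF factor like Tcf7, had 33.1 ± 3.98 CPM in Control (SD, n = 4), 19.1 ± 4.34 CPM in Aged (SD, n = 3) and 27.5 ± 1.85 CPM in Aged+CF (SD, n = 3), with a log2 fold change of -0.79 (adjusted p = 0.0148) for Aged vs Control. The corepressor Tle4 fell by 0.67 on the log2 scale (adjusted p = 0.0162), and Tnks, a tankyrase that marks Axin for degradation, fell by 0.64 (adjusted p = 0.0114). Without Aged 33 the log2 fold changes of Tle4 and Tnks were -0.55 and -0.56, below the fold minimum, and the call of Gsk3b was lost without Aged 31 (log2 fold change -1.24). Higher in Aged+CF than in Aged at unadjusted p were also Porcn, the enzyme that acylates Wnt proteins (log2 fold change 0.69, adjusted p = 0.161), Dact1, a Dishevelled-binding protein (0.77, adjusted p = 0.232) and Celsr2, a planar polarity cadherin (0.82, adjusted p = 0.303). Porcn had 11.2, 11.5 and 12.9 CPM in Aged and 15.3, 19.3 and 22.7 CPM in Aged+CF, without overlap.

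**Figure D5:**
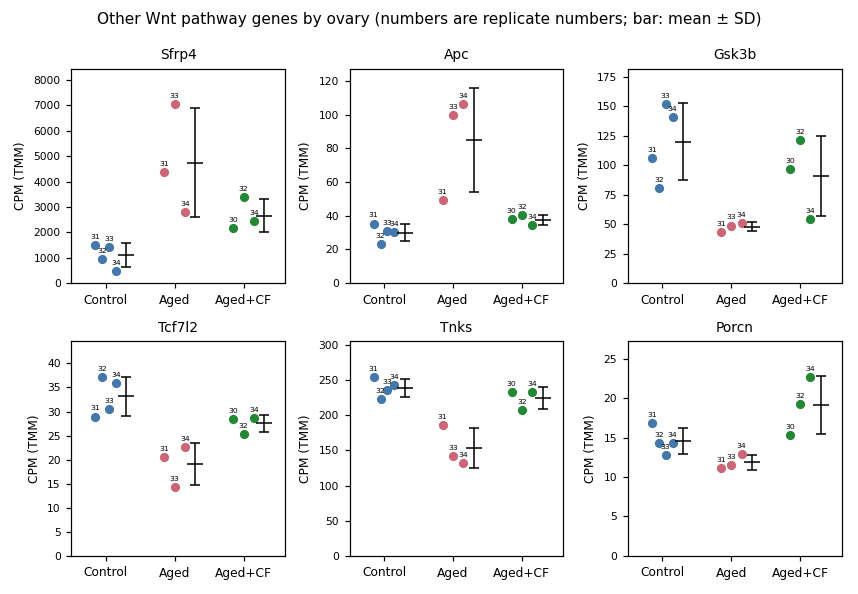
CPM by ovary (points, with replicate numbers) of 6 pathway genes outside the 52 members, with mean ± SD as the black bar (4 Control, 3 Aged and 3 Aged+CF ovaries). All 3 Aged ovaries lie above the others for Apc and below them for Gsk3b, Tcf7l2 and Tnks, and every Aged+CF ovary lies above every Aged ovary for Porcn.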

How the data were processed

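RNA of 10 mouse ovaries was used, grouped by the labels as Control (4), Aged (3) and Aged+CF (3). The study's methods call the ovaries of a group biological replicates. For each gene the authors deposited counts of reads without normalization, and per the labels' processing notes TopHat, Cufflinks 2.1.1 and GRCm38 p4 were used; the counter and the strand setting are not given in the sources used here. The authors also deposited FPKM values, which equalled the count divided by a fixed gene length and the library total. Positions came from GENCODE M21 on GRCm38.

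Counts were tested in edgeR 4.0.16 (R 4.3.3) by a quasi-likelihood fit over all 10 ovaries, with TMM scaling and edgeR's filter on low counts (18956 of 55487 genes kept, 18869 without any count). DESeq2 1.42.0 was an alternative, beside no filter, DESeq2's size factors, the compared groups alone, a replicate block and leaving out each ovary. None of 12 pairs of libraries of the same group agreed within sampling noise. Members are named with all values if called at adjusted p in any comparison or at unadjusted p in Aged+CF vs Aged, or if among the 3 highest by FPKM in their role. For other pathway genes these were up to 4 each way among adjusted calls in Aged vs Control and unadjusted calls in Aged+CF vs Aged. Members, lists and markers were chosen with earlier results of these data known. Protein sequences were not used here.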

Additional observations from a re-analysis of the deposited data

Results flagged for a closer look

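Among the Control ovaries, 3 of 42 members checked had a value far from the other Control ovaries by Dixon's test, where chance gives about 1 in 20. Fzd7 was at 71.7 CPM in Control 34, against 59.9 to 60.3 CPM in the others. Lrp5 was at 147 CPM in Control 31, against 154 to 155 CPM. Wnt16 was at 5.68 CPM in Control 33, against 0 to 0.265 CPM, and the oviduct markers summed to 457 CPM in the same ovary.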

How the results depend on the processing

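Of 560 values of 35 gene comparisons under the alternatives, 423 kept their side of the threshold, 137 lost it and 0 reversed direction. These genes were picked by their call at unadjusted p in the main fit, and the alternatives reuse the same counts. Reversals could thus hardly occur. Calls of members at adjusted p in Aged vs Control were 3, and 2 to 5 over the fits without 1 ovary. Those at unadjusted p were 5, and 4 to 12. In Aged+CF vs Aged they were 0 (0 to 2) and 8 (3 to 12), and in Aged+CF vs Control 0 (0 to 1) and 5 (1 to 5). For other pathway genes the ranges were 6 to 14 and 7 to 16, 0 to 1 and 3 to 12, and 0 to 1 and 1 to 3. The share of all genes called also moved over these fits. In Aged vs Control it was 5.74% to 16.1% at adjusted p and 16.2% to 22.1% at unadjusted p. In Aged+CF vs Aged it was 0.0051% to 2.87% and 5.95% to 12.2%. In Aged+CF vs Control it was 0.0358% to 1.8% and 4.38% to 10.3%. DESeq2's Wald test called 3 members at adjusted p in Aged+CF vs Aged (7.69%, against 2.33% of all genes by that test). In Aged+CF vs Control it called 1 (2.56%, against 2.79%), and in both of these comparisons it called 2 pathway genes (3.03%). DESeq2's size factors left 3 members at unadjusted p in Aged+CF vs Control (7.69%, against 7.59% of all genes). With the compared groups alone, 5 members were called at unadjusted p in Aged+CF vs Aged (13.2%, against 5.6% of all genes in that fit). At adjusted p in Aged+CF vs Control, 2 members (5.13%) and 1 pathway gene (1.52%) were then called. The share of all genes there was 2.63%, against 0.179% with all 10 ovaries fitted. An alternative chosen after seeing the data left out Control 33 and Aged 34, which held oviduct markers. In Aged vs Control it called 5 members at adjusted p (12.8%, against 14.4% of all genes in that fit). At unadjusted p it called 10 there (25.6%, against 22.1%). In Aged+CF vs Aged it called 1 member at adjusted p (2.56%, against 1.51%) and 12 at unadjusted p (30.8%, against 12.1%). In Aged+CF vs Control it called 3 members at unadjusted p (7.69%, against 10.3%). Pathway genes called at unadjusted p were 15 in Aged vs Control (22.7%, against 22.1%) and 11 in Aged+CF vs Aged (16.7%, against 12.1%). The causes were not tested.

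Ovaries with the same number are different animals, and the numbers were not used as pairs in the main fit. Deviations from the group means correlated at -0.18 to 0.15 for the same number in different groups. For different numbers they correlated at -0.19 to 0.19. Whether ovaries of the same number shared a batch was not tested. With the replicate block, 0 members and 1 pathway gene (1.52%) were called at adjusted p in Aged vs Control. At unadjusted p in Aged+CF vs Aged, 5 members were called (12.8%, against 4.68% of all genes). In that fit 0.422% of all genes passed at adjusted p in Aged vs Control, against 11.1% without the block.

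Each group had 3 or 4 ovaries, and the p-values set a difference against the spread between these ovaries. That spread was estimated for all groups together, although it was 0.378 in Aged, 0.209 in Control and 0.193 in Aged+CF. Members with few counts, such as Wnt2, Fzd9 and Fzd10, had standard errors above 0.5 on the log2 scale. So had some with more counts that varied widely between ovaries, such as Wnt2b and Sfrp2. Their mean counts were 768 and 329, with standard errors of 0.76 and 0.68 in Aged vs Control.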
